A study of Mus musculus with 28 samples.

Results

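RNA-seq of 1 whole ovary was set against RNA-seq of 7 whole testes, gene by gene. A gene was listed when its ovary value lay outside the range of all 7 testes, so the testes supplied the only spread and no test was possible with 1 ovary. Of 34264 autosomal genes with a value, 18434 reached 1 RPKM, a read number scaled to exon length and to the mapped reads of the library, in at least 1 of the 8 libraries and were compared. Of these 18434 genes, 12877 lay outside the testis range and 5557 lay inside it. The 8 libraries are part of 28 in the series as used here.

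The ovary came from a wildtype mouse (86). The testes came from 2 wildtype mice (178 and 648) and 5 *Csmd1* knockout mice (214, 269, 273, 286 and 308), with 1 library per mouse. All are labelled as C57BL/6, and the study's methods describe wildtype and knockout siblings of a colony that began on a mixed 129SvEvBrd:C57BL/6 background. The knockout is constitutive, with exon 1 and part of intron 1 of *Csmd1* replaced by a lacZ/neomycin cassette. The labels give no age, and the sources used here give 40 days for mouse 178. The study's methods give 40 ± 1 days for mice whose germ cells were sorted. Sorted libraries of mice 178, 648 and 286 are in the series. Whole testes of both sexually immature and mature mice are described by the study. No age is given for mice 214, 269, 273 and 308 in the sources used here, so the range of the 7 testes may mix ages. For mice whose germ cells were sorted, the testis used for whole-tissue RNA was enzymatically dissociated before extraction. Mice 214, 269, 273 and 308 have no sorted library in the series, so this step is not certain for them. No such step is described for the ovary. Where the testis was dissociated, preparation and organ cannot be told apart.

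The ovary and the testis arise from a common gonadal primordium and do related work with different cells. In the ovary, oocytes are enclosed by granulosa cells that make estradiol and inhibin, theca cells supply androgen, and the corpus luteum makes progesterone after ovulation. In the testis, Sertoli cells nurse spermatogonia, meiotic spermatocytes and spermatids, and Leydig cells make testosterone. Most testis RNA comes from meiotic and post-meiotic germ cells, which replace many housekeeping enzymes with germ cell forms.

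A few short stretches of sequence show the kind of control region that lies before such genes. They are the 200 bases before the RefSeq start of *Zp3*, which encodes an egg coat protein, and of *Prm1* and *Tnp1*, which encode proteins that pack sperm chromatin (build GRCm38.p6). Capitals in *Zp3* mark CANNTG, the E-box bound by basic helix-loop-helix factors, and capitals in *Prm1* and *Tnp1* mark TGACNTCA, which includes the cAMP response element, each sought on both strands. The *Zp3* stretch is chr5:135979905-135980104 on the plus strand, the *Prm1* stretch is chr16:10796824-10797023 on the minus strand and the *Tnp1* stretch is chr1:73015900-73016099 on the minus strand.
Zp3: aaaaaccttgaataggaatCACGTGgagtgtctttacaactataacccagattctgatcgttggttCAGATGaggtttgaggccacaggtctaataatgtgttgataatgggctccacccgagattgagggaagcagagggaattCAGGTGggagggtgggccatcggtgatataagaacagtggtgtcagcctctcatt
Prm1: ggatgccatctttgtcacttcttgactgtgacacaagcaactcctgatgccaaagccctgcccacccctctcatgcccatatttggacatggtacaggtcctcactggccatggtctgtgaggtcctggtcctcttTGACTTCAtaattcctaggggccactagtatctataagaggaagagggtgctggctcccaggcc
Tnp1: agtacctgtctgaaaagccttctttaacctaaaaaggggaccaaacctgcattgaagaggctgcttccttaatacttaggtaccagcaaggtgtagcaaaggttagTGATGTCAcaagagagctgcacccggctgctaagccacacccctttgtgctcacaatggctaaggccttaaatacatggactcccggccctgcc

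The *Zp3* stretch holds CANNTG 3 times, with first bases 181, 134 and 55 bases before the start. The *Prm1* and *Tnp1* stretches hold TGACNTCA once each, 64 and 94 bases before the start. Of 27025 mouse promoters, 57.9% hold CANNTG in such a 200-base stretch and 6.71% hold TGACNTCA. Among the 1710 genes lying 2-fold or more below all 7 testes that have a promoter in the table, 10.4% hold TGACNTCA, against 4.44% of 4418 genes 2-fold or more above them and 6.66% of 12586 genes compared. For CANNTG the shares were 53.4% of the genes below, 52.4% of those above and 50.8% of those compared. Of the spermatid and sperm genes described below, 7 of 19 with a promoter hold TGACNTCA (*Prm1*, *Prm3*, *Tnp1*, *Izumo1*, *Tssk2*, *Hspa1l* and *Akap3*). These are counts of letters, and binding was not measured.

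The libraries had an estimated 31262114 to 53185831 mapped reads, with 52706478 in the ovary. *Xist*, which silences 1 X chromosome in female cells, was at 20.6 RPKM in the ovary and at 0.046 to 1.02 RPKM in the testes. The Y-linked genes *Ddx3y*, *Eif2s3y*, *Uty* and *Kdm5d* were listed at 0 in the ovary and had values in all 7 testes. Summed RPKM of all genes on the Y chromosome was 15.6 in the ovary and 105 to 228 in the testes. Summed RPKM of mitochondrial genes was 143883 in the ovary and ran from 6783 to 242136 in the testes, and RPKM of all other genes shares a total with it. *Csmd1* itself does not check the genotype labels, since the value covers exons outside the deletion. In knockout testes the study reports most *Csmd1* exons as absent or strongly reduced and the last exons as raised. Its summed value was 1.25 and 0.058 RPKM in the wildtype testes and 2.10, 0.217, 1.76, 0.396 and 0.184 RPKM in knockout testes 214, 269, 273, 286 and 308.

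The labelled organs were checked on marker genes. *Zp3* was at 43.3 RPKM in the ovary and at 0 to 0.266 RPKM (median 0.065) in the testes. *Foxl2*, the transcription factor that keeps granulosa cell identity, was at 5.42 RPKM in the ovary, with 6 testes listed at 0 and 1 at 0.018 RPKM. *Cyp19a1*, the aromatase that makes estradiol, was at 45.7 RPKM in the ovary and 0.037 to 0.370 RPKM in the testes. The ovary lay above all 7 testes for each of these genes, with no overlap. Other markers did overlap: the oocyte marker *Gdf9* and the Leydig cell markers *Insl3* and *Hsd17b3* lay inside the testis range, with values given below.

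*Prm1* was listed at 0 in the ovary. In the testes it was at 603 RPKM (wildtype 178), 0.681 RPKM (wildtype 648), 1152 RPKM (knockout 214), 0.85 RPKM (knockout 269), 1922 RPKM (knockout 273), 1.16 RPKM (knockout 286) and 0.439 RPKM (knockout 308). Testes 178, 214 and 273 were therefore high and the other 4 were near 1 RPKM, and both genotypes held both kinds. Spermatids appear late in the first wave of spermatogenesis. The age that the methods give for sorted mice would cover high testis 178 and low testes 648 and 286. The ages of 214, 269, 273 and 308 are not known here, and the part of age in this split was not tested. *Tnp1* split the same way, at 889, 1561 and 2464 RPKM in testes 178, 214 and 273 and at 0.049 to 4.0 RPKM in the other 4. The 4 low testes held RNA of earlier stages, since *Hspa2*, a chaperone of spermatocytes, ranged from 172 to 595 RPKM over all 7 testes against 11.9 RPKM in the ovary. Without the 4 testes with *Prm1* under 2 RPKM, 3883 genes in place of 2650 lay 2-fold or more below the testes. Above them lay 8210 in place of 6344. This alternative was chosen after the values were seen. Leaving out testes can only narrow the range, so much of the rise was set in advance.

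**Figure D1:**
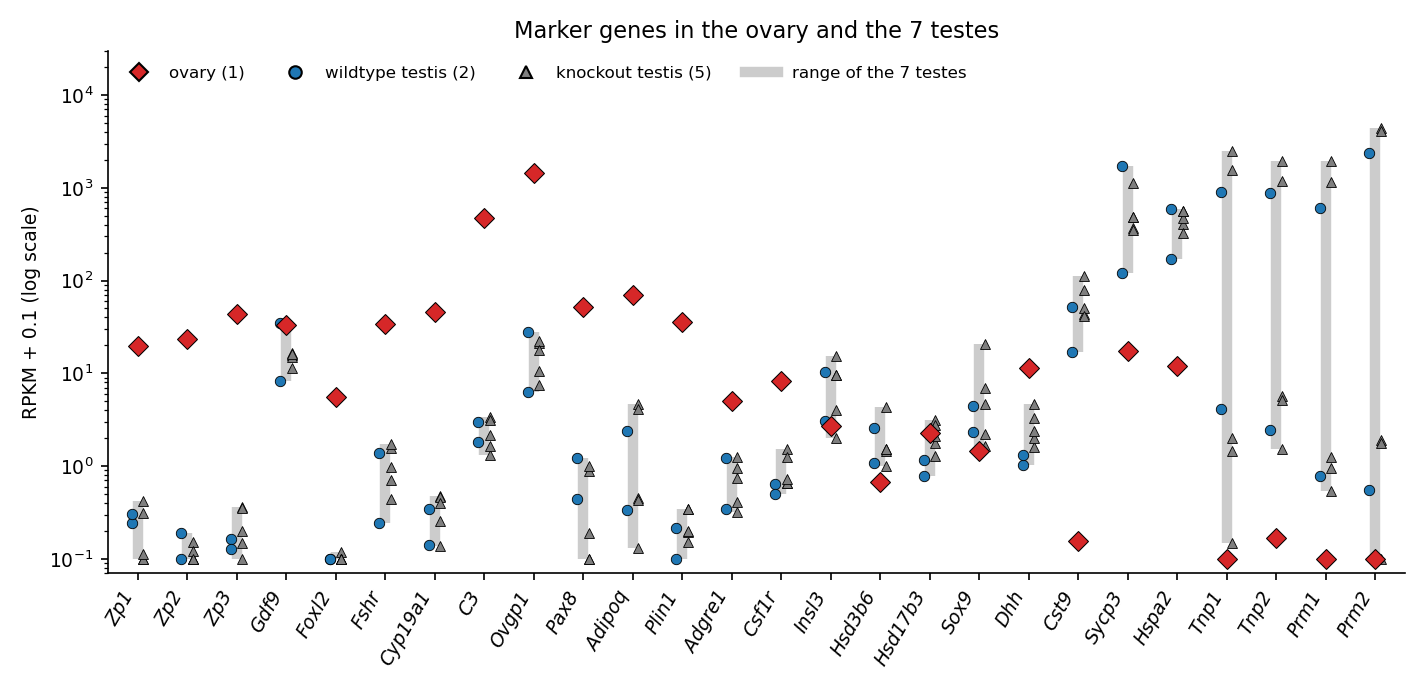
RPKM + 0.1 on a log scale (y axis) for marker genes (x axis) in the ovary (red diamonds), 2 wildtype testes (blue circles) and 5 knockout testes (grey triangles), with a bar over the range of the 7 testes. *Zp3* and *Foxl2* lie far above every testis, whereas *Prm1* ranges from 0.439 to 1922 RPKM among the testes.

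Markers of tissue that adjoins the ovary were also present. *Ovgp1*, the oviduct glycoprotein, was at 1445 RPKM in the ovary and 6.17 to 27.5 RPKM in the testes, and the oviduct transcription factor *Pax8* was at 51.1 RPKM against 0 to 1.13 RPKM. *Adipoq*, the fat cell hormone adiponectin, was at 69.5 RPKM in the ovary and 0.032 to 4.6 RPKM in the testes. Their part in the results below was not tested. In whole tissue, fewer cells of a type and less RNA per cell cannot be told apart.

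The ovary lay above all 7 testes for 8921 of 18434 genes (48.4%) and below all 7 for 3956 genes (21.5%). Distance was measured as the gap on log2(RPKM + 0.1) between the ovary and the nearest testis, which understates differences of low genes. By at least 1 log2 unit, hereafter 2-fold, 6344 genes (34.4%) lay above and 2650 genes (14.4%) lay below. Genes at least 8-fold outside numbered 2066 above and 1093 below, and at least 256-fold outside 31 above and 112 below. Against the 2 wildtype testes alone, 8786 genes lay 2-fold above and 3060 below, and against the 5 knockout testes alone 6457 and 3174. Each count exceeds that against all 7 testes, whose range is at least as wide as that of either part. Of the 2650 genes 2-fold below, 834 were listed at 0 in the ovary. Of the 6344 genes 2-fold above, 2000 were under 1 RPKM in every testis.

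The whole scale was shifted. The median compared gene was 0.94 log2 units higher in the ovary than in the median testis. Lists below are read beside that value and beside the 34.4% of all genes compared that lay 2-fold above and the 14.4% below. After median-ratio scaling on 9194 genes, the median became 0 and 4539 genes lay 2-fold above and 3665 below, which moved the share above from 70.5% to 55.3% of calls. After quantile normalization it was 3669 above and 4454 below, or 45.2% above. No testis shares the ovary's set of transcripts without a value, which 6 libraries of sorted testis germ cells do share. Beside those 6, the ovary was also 2-fold above all of them for 5812 of the 6344 genes, and 2-fold below all of them for 2266 of the 2650 genes. Both comparisons share the ovary library, and sorted germ cells lack the somatic cells of the testis. The genes were chosen on the same ovary value, so much of this overlap was set in advance. It does not test whether the missing values matter, and the share over all genes compared was not taken.

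Protein-coding genes nearest the limits show where the line runs. *Ergic2* lay just outside the range (423 RPKM in the ovary against a highest testis of 422.9 RPKM). *Abca8b* was just past 2-fold above (1.34 RPKM against 0.621 RPKM) and *Glce* just short of it (7.95 RPKM against 3.93 RPKM). *Zfhx2* was just past 2-fold below (0.701 RPKM against a lowest testis of 1.5 RPKM) and *Fndc3a* just short of it (95.4 RPKM against 190.6 RPKM).

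**Figure D2:**
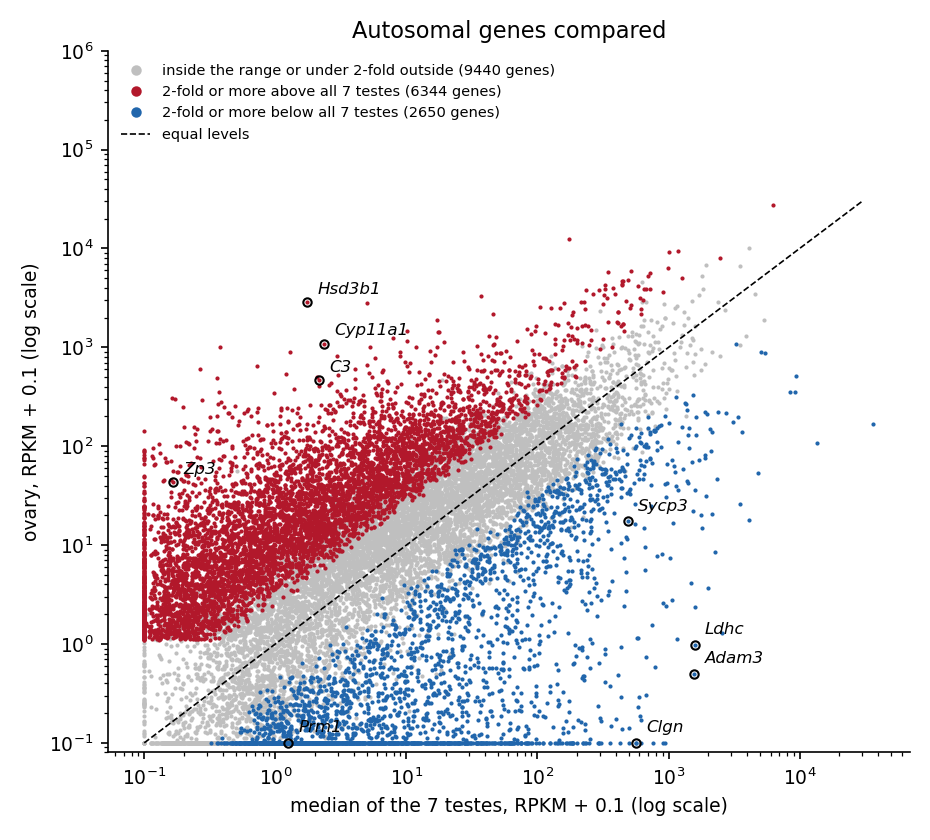
Ovary RPKM + 0.1 (y axis) against the median of the 7 testes (x axis), both on log scales, 1 point per compared autosomal gene, with a dashed line at equal levels. The 6344 genes 2-fold or more above all 7 testes are red, the 2650 genes 2-fold or more below are blue, and the grey cloud is centred above the dashed line.

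Among the 10 protein-coding genes farthest above the testes, 3 encode steroid enzymes. *Hsd17b1* (chr11:101078411-101080527 in GRCm38), which turns estrone into estradiol in granulosa cells, was at 298 RPKM in the ovary and 0 to 0.203 RPKM (median 0.071) in the testes, a gap of 9.94 log2 units. *Hsd3b1* (chr3:98852194-98859794), which makes progesterone from pregnenolone, was at 2868 RPKM and 0.660 to 3.59 RPKM (median 1.64), 799-fold over the highest testis. *Akr1c14*, a hydroxysteroid dehydrogenase, was at 598 RPKM and 0 to 0.723 RPKM. No testis exceeded 4 RPKM for any of these 3 enzymes, and the ovary was above all 7 testes for each.

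Others encode secreted proteins or receptors. *Sfrp4*, a secreted inhibitor of Wnt signalling, was at 305 RPKM in the ovary and 0 to 0.282 RPKM in the testes. *Inhba*, the activin and inhibin beta A chain, was at 292 RPKM against 0 to 0.504 RPKM, and *Bmpr1b*, a receptor for bone morphogenetic proteins, at 264 RPKM against 0 to 0.545 RPKM. *Apoa4*, an apolipoprotein, was at 86.7 RPKM, with 5 testes at 0 and a highest testis of 0.048 RPKM. The genes farthest above also included the metabolic enzymes *Ephx2*, an epoxide hydrolase (351 RPKM against 0.037 to 0.363 RPKM), and *Bcat1*, which transfers amino groups from branched-chain amino acids (1000.4 RPKM against 0.043 to 1.72 RPKM).

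Among the 10 farthest below, 7 were listed at 0 in the ovary, so no fold is given for them. *Clgn* (chr8:83389867-83428552), the germ cell chaperone calmegin, was at 0 in the ovary and 234 to 684 RPKM (median 563) in the testes. *Hrasls5*, a phospholipid-modifying enzyme, was at 0 and 489 to 3331 RPKM, and *Lypd4*, a sperm surface protein, at 0 and 251 to 614 RPKM. *March11*, a membrane ubiquitin ligase, was at 0 and 227 to 1129 RPKM. The 3 others at 0 were the predicted or little-described genes *4933409G03Rik* (515 to 1323 RPKM), *1700129C05Rik* (260 to 1028 RPKM) and *AA467197* (215 to 1184 RPKM). The ovary had a trace of the sperm membrane gene *Adam3* (0.398 RPKM against 1212 to 6262 RPKM), of the sperm tail gene *Odf4* (0.069 RPKM against 406 to 848 RPKM) and of *Ccdc192* (0.042 RPKM against 298 to 888 RPKM). The ranking by distance from the lowest testis favours genes that are high in all 7 testes.

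Levels between genes are compared on the highest transcript, because shared reads appear to be counted for each overlapping transcript: in 99.4% of 16810 pairs of nested transcripts the contained one had no more reads than the containing one. On that scale the 10 most abundant autosomal genes in the ovary included *Hsd3b1* (1443 RPKM) and *Inha*, the shared inhibin alpha chain (1457 RPKM). Of the others, 6 serve translation, namely *Eef1a1* (3597 RPKM), *Rps14* (2159 RPKM), *Rps24* (1815 RPKM), *Rplp1* (1682 RPKM), *Rpl41* (1624 RPKM) and *Rps21* (1387 RPKM). The first 2 were the structured RNAs *Rpph1* (12377 RPKM, testes 9.19 to 350.6 RPKM) and *Rn7sk* (10185 RPKM, testes 356 to 8275 RPKM), which carry no poly(A) tail, although the labels give polyA RNA. Whether selection of RNA differed between the libraries was not tested.

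The oocyte list held 22 compared genes, of which 16 lay 2-fold above all 7 testes and 1 lay 2-fold below, with a median difference of 5.70 log2 units from the median testis. Among the rest, 3 members were inside the range. The farthest above were *Oosp1*, an oocyte-secreted protein (24.1 RPKM against 0 to 0.084 RPKM), *Zp2*, another egg coat protein (23.2 RPKM against 0 to 0.088 RPKM), and *H1foo*, the oocyte linker histone (49.99 RPKM against 0.018 to 0.313 RPKM). *Nlrp14* lay below, at 27.7 RPKM in the ovary and 64.1 to 197.4 RPKM in the testes, and *Sohlh1*, a transcription factor of early germ cells of both sexes, lay just below at 0.265 RPKM against 0.277 to 1.65 RPKM. *Gdf9*, the oocyte growth factor that acts on granulosa cells, was inside the range at 33.0 RPKM, against 8.25 to 34.8 RPKM in the testes.

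All 18 granulosa genes lay 2-fold or more above the 7 testes, with a median difference of 7.11 log2 units. After *Hsd17b1* and *Inhba*, the farthest was *Nr5a2*, the nuclear receptor of granulosa and luteal cells (219 RPKM against 0.027 to 0.585 RPKM). *Fshr*, the receptor for follicle-stimulating hormone, was at 33.9 RPKM against 0.146 to 1.61 RPKM, although Sertoli cells use it too. Under median-ratio scaling 16 of the 18 and under quantile normalization 17 of the 18 stayed 2-fold above.

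The steroidogenesis and corpus luteum list had 17 of 21 genes 2-fold above, 1 below by less than 2-fold and 3 inside, with a median difference of 4.51 log2 units. *Cyp11a1*, which cuts cholesterol to pregnenolone, was at 1087 RPKM in the ovary and 0.392 to 3.20 RPKM (median 2.25) in the testes, 340-fold over the highest. *Ptgfr*, the prostaglandin F2 alpha receptor through which the corpus luteum regresses, was at 143 RPKM against 0 to 0.346 RPKM. *Hsd3b6*, the 3 beta dehydrogenase of Leydig cells, was the member below, at 0.581 RPKM against 0.899 to 4.22 RPKM. *Insl3*, a Leydig and theca hormone, was inside the range at 2.62 RPKM against 1.88 to 15.2 RPKM, as was *Hsd17b3*, which makes testosterone, at 2.15 RPKM against 0.688 to 3.03 RPKM.

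Of 15 ovulation genes, 4 stayed under 1 RPKM in all 8 libraries, and 10 of the 11 compared lay 2-fold above. *Plat*, tissue plasminogen activator, was at 47.8 RPKM against 0.325 to 1.86 RPKM. *Mmp2*, a matrix protease, was at 12.6 RPKM against 0.074 to 0.495 RPKM. *Edn2*, an endothelin made at follicle rupture, was at 2.06 RPKM with all 7 testes at 0. Fewer of the list reached 1 RPKM after rescaling, and 8 of 9 lay 2-fold above under median-ratio scaling and 5 of 6 under quantile normalization.

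Supporting tissue was also higher in the ovary. Of 20 stroma and smooth muscle genes, 20 lay above all 7 testes and 18 by 2-fold or more, with *Col4a2* and *Col4a1*, the basement membrane collagens, at 122 and 135 RPKM against highest testes of 3.25 and 4.67 RPKM, and *Col3a1*, a fibrillar collagen, at 199.97 RPKM against 5.81 RPKM. Of 11 endothelial genes 9 lay 2-fold above, led by *Tie1* (9.15 RPKM against 0.061 to 0.274 RPKM), *Emcn* (19.3 RPKM against 0.234 to 1.05 RPKM) and *Kdr* (11.0 RPKM against 0.130 to 0.616 RPKM). The medians were 4.37 and 3.66 log2 units. Under median-ratio scaling and quantile normalization, 18 and 15 of the 20 stroma genes were 2-fold above, as were 7 and 6 of 10 endothelial genes that then reached 1 RPKM.

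Macrophage and antigen presentation genes lay 2-fold above in 15 of 16 cases, with a median of 4.55 log2 units. Under median-ratio scaling 11 of 16 and under quantile normalization 10 of 16 stayed 2-fold above. *Cd74* and *H2-Aa*, which serve MHC class II presentation, were at 257 and 110.1 RPKM against highest testes of 5.27 and 5.96 RPKM, and *Lyz2*, macrophage lysozyme, was at 41.9 RPKM against 1.20 RPKM. The defining macrophage markers *Adgre1* and *Csf1r* were at 4.96 and 8.16 RPKM against highest testes of 1.14 and 1.42 RPKM.

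Complement is the system that the study's gene acts on. Of 28 compared complement genes 16 lay 2-fold above and 3 lay 2-fold below, beside 34.4% and 14.4% of all genes compared. The median was 3.11 log2 units. Under median-ratio scaling 14 of 28 lay 2-fold above and 4 below, and under quantile normalization 14 of 27 and 5. *C3* (chr17:57203970-57228136), the central protein of the cascade, was at 468 RPKM summed over its transcripts in the ovary, and at 1.23 to 3.29 RPKM (median 2.05) in the testes. Its full-length transcript was at 101.8 RPKM against 0.280 to 0.714 RPKM. *Cfd*, the protease of the alternative pathway that fat cells also secrete, was at 111 RPKM against 0 to 0.830 RPKM. The 3 members 2-fold below were *Cd55b*, a testis form of decay-accelerating factor (0.081 RPKM against 73.3 to 187.5 RPKM), and the *Csmd1* relatives *Csmd2* (0.021 RPKM against 0.823 to 1.82 RPKM) and *Csmd3* (0.083 RPKM against 0.487 to 2.61 RPKM). *Csmd1* (chr8:15892537-17535586) lay in the opposite direction, with 14.6 RPKM in the ovary against 0.058 to 2.10 RPKM in the testes. Its full-length transcript was at 2.23 RPKM against 0.025 to 0.629 RPKM. Both of these highest testis values came from knockout testis 214.

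Oviduct and surface epithelium genes lay above in 14 of 14 cases and 2-fold above in 12, with a median of 7.27 log2 units. The keratins *Krt18*, *Krt7* and *Krt19* were at 69.6, 75.6 and 144 RPKM, with highest testes of 0.154, 0.182 and 0.814 RPKM. Fat cell genes were 2-fold above in 9 of 10 cases with a median of 7.29 log2 units, led by *Car3* (249.1 RPKM against 0 to 0.524 RPKM), *Cd36* (218 RPKM against 0.051 to 0.732 RPKM) and *Fabp4* (203 RPKM against 0 to 0.814 RPKM). These medians were the highest of the 16 lists, beside 7.11 log2 units for granulosa cells.

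**Figure D3:**
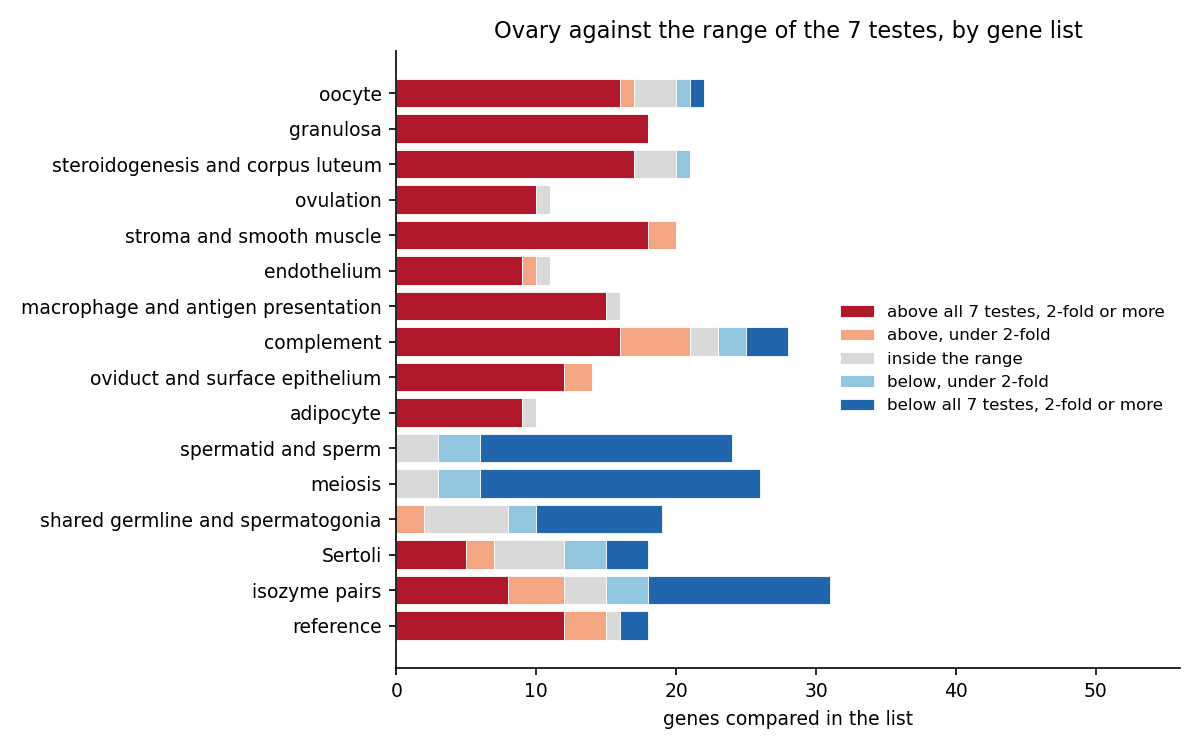
Number of compared genes (x axis) in each gene list (y axis) that lay above, inside or below the range of the 7 testes, with darker shades for 2-fold or more. All 18 granulosa genes are dark red, and 20 of 26 meiosis genes are dark blue.

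Genes of meiosis and of spermatids and sperm lay the other way. No meiosis gene of 26 lay above the testes, 20 lay 2-fold below and 3 were inside, with a median of -6.15 log2 units. *Syce1*, of the synaptonemal complex, was at 0.065 RPKM in the ovary and 97.3 to 375 RPKM (median 303) in the testes. *Piwil1* and *Mael*, of the piRNA pathway, were at 0.110 and 0.539 RPKM against lowest testes of 50.4 and 116 RPKM. *Sycp3*, one of the genes that also serve meiosis in fetal oocytes, kept 17.3 RPKM in the ovary against 119 to 1714 RPKM.

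The spermatid and sperm list had 18 of 24 genes 2-fold below, none above and 3 inside, with a median of -5.31 log2 units. *Acr*, the acrosomal protease acrosin, was at 0.088 RPKM in the ovary and 85.4 to 151 RPKM in the testes. *Dnah8*, a dynein of the sperm tail, was at 0.225 RPKM against 76.3 to 264 RPKM, and *Adam2*, a sperm surface protein, at 0.163 RPKM against 24.7 to 166 RPKM. The 3 members inside the range (*Prm2*, *Tssk6* and *Fscn3*) were at 0 to 0.639 RPKM in the ovary, and their lowest testes were at 0 to 0.015 RPKM. In 16 of the 24 genes the highest testis exceeded the lowest by over 50-fold or a testis was at 0, and 9 genes were at 0 in the ovary.

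**Figure D4:**
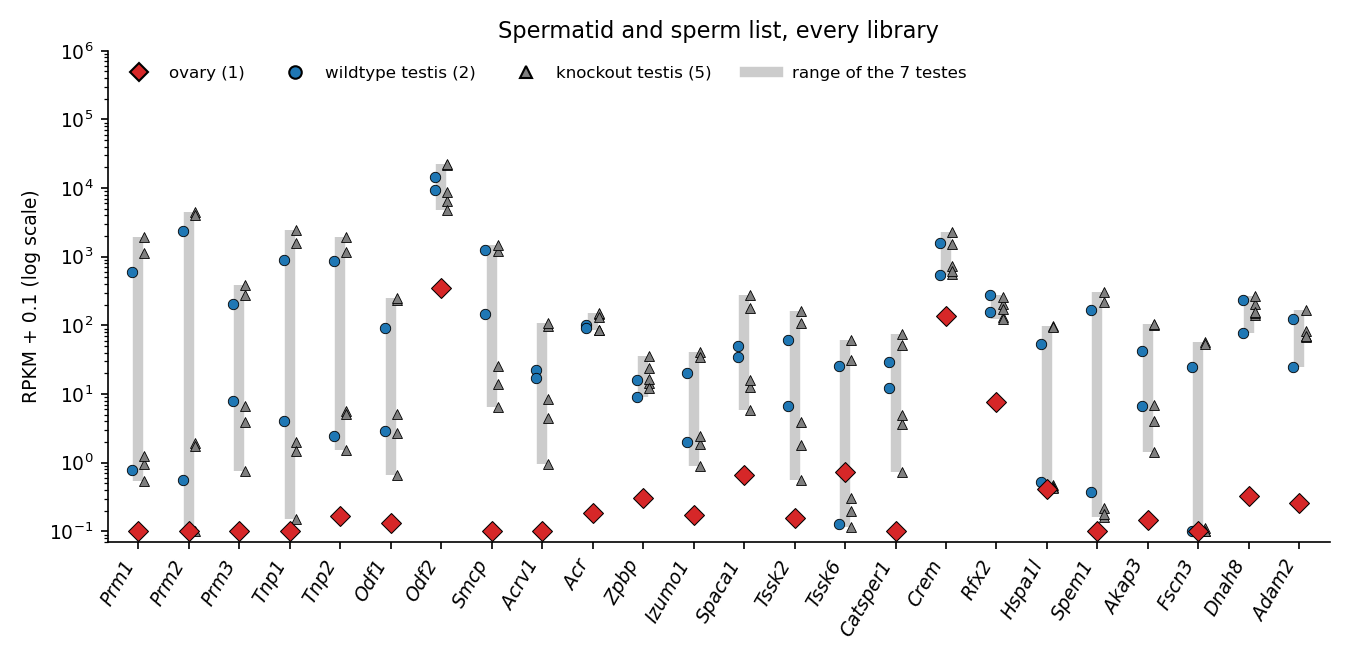
RPKM + 0.1 on a log scale (y axis) for the 24 spermatid and sperm genes (x axis), with symbols as for the marker genes. *Acr* and *Dnah8* stay high in all 7 testes, whereas *Prm1*, *Tnp1* and *Tnp2* are high in testes 178, 214 and 273 and low in the other 4.

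Genes used by germ cells of both sexes or by spermatogonia were mixed. Of 19 compared, 9 lay 2-fold below, 2 lay above by less than 2-fold and 6 were inside, with a median of -1.97 log2 units. *Ddx4*, the germ cell RNA helicase, was at 0.647 RPKM against 76.97 to 347 RPKM, *Mov10l1*, a piRNA helicase, at 0.143 RPKM against 31.4 to 217 RPKM, and *Brdt*, a chromatin reader of meiosis, at 2.33 RPKM against 274 to 1058 RPKM. *Dppa5a* (2.42 RPKM against 0.155 to 1.54 RPKM) and *Gfra1*, a GDNF receptor (7.18 RPKM against 2.22 to 5.06 RPKM), lay above as deposited. *Gfra1* was inside the range under 4 of 18 alternatives and *Dppa5a* under 1.

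The Sertoli list lay near the shares over all genes. Of its 18 genes, 5 lay 2-fold above the testes and 3 lay 2-fold below, beside 34.4% and 14.4% of all genes compared, with a median of 1.46 log2 units beside 0.94. At any distance 7 lay above and 6 below. Under median-ratio scaling it was 6 above and 8 below, and under quantile normalization 6 of 17 above and 9 below. *Cst9*, a Sertoli cystatin, was at 0.055 RPKM in the ovary and 16.7 to 113 RPKM in the testes, and *Defb36*, a defensin, was at 0.324 RPKM against 6.19 to 26.5 RPKM. *Sox8*, a relative of *Sox9*, was at 1.89 RPKM against 5.66 to 80.6 RPKM. Above the testes were *Trf*, the iron carrier transferrin (328 RPKM against 4.11 to 13.2 RPKM), *Ctsl*, the protease cathepsin L (561 RPKM against 3.69 to 28.5 RPKM), and *Gdnf*, a growth factor for spermatogonia (2.35 RPKM against 0.011 to 0.118 RPKM). *Sox9*, the main Sertoli factor, was 0.20 log2 units below the lowest testis, at 1.34 RPKM against 1.55 to 20.7 RPKM. The Sertoli marker *Dhh* lay 2-fold or more above every testis, at 11.4 RPKM against 0.915 to 4.51 RPKM.

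Enzymes with a germ cell form showed the exchange of forms between the organs. Of 15 testis forms, 14 lay below all 7 testes in the ovary, 11 by 2-fold or more, and none lay above. Of 16 other members, 12 lay above, 8 of them by 2-fold or more, and 2 lay below. Of all genes compared, 48.4% lay above and 21.5% below, and 34.4% and 14.4% did so by 2-fold or more. *Cox8c*, the testis form of a cytochrome oxidase subunit, was at 0 in the ovary and 148 to 983 RPKM in the testes, whereas its partner *Cox8a* was at 194 RPKM against 5.55 to 28.6 RPKM. *Ldhc*, the germ cell lactate dehydrogenase, was at 0.885 RPKM against 484 to 3554 RPKM. *Aldoa*, a glycolytic aldolase, was at 3917 RPKM against 189 to 632 RPKM, and *Slc25a4*, a mitochondrial ADP/ATP carrier, at 216 RPKM against 3.33 to 37.2 RPKM.

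**Figure D5:**
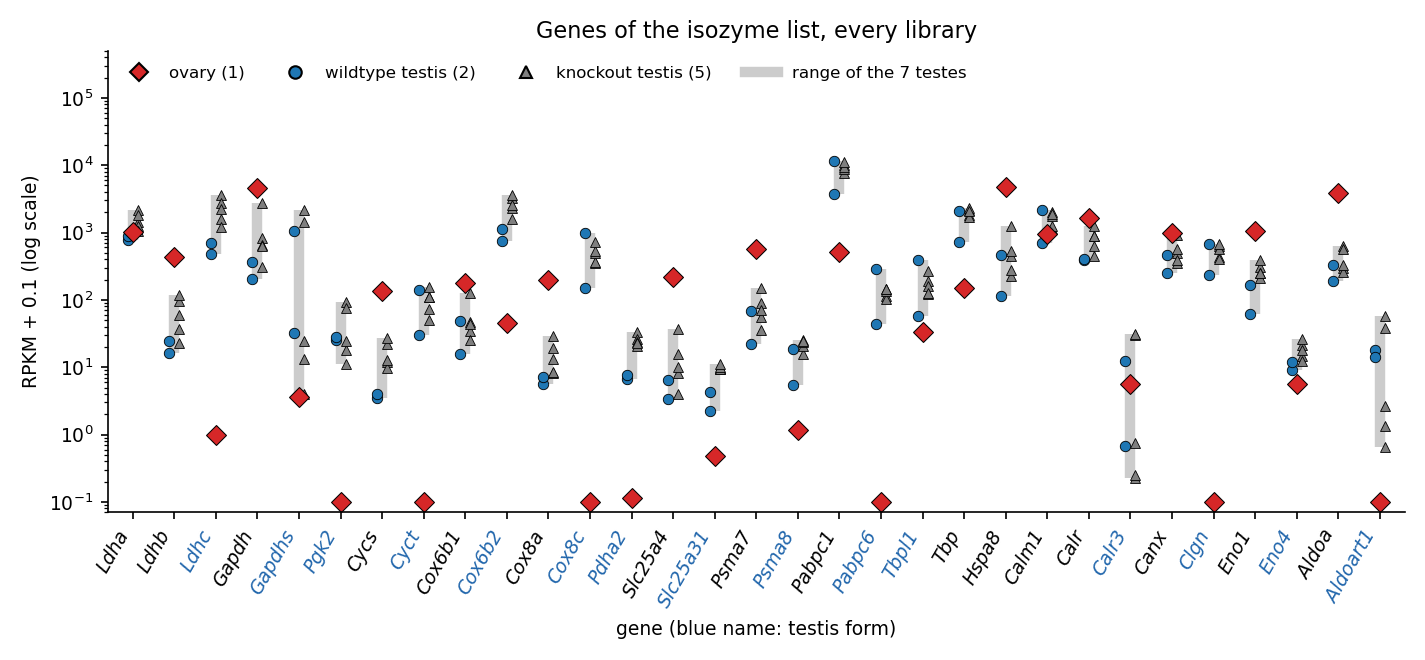
RPKM + 0.1 on a log scale (y axis) for the genes of the isozyme list (x axis, testis forms named in blue), with symbols as for the marker genes. *Clgn*, *Cox8c* and *Ldhc* lie below every testis in the ovary, whereas *Cox8a* and *Aldoa* lie above every testis.

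Housekeeping genes were not level between the organs. Of 18 reference genes 15 lay above all 7 testes, 12 of them by 2-fold or more, and 2 lay 2-fold below, with a median of 2.42 log2 units. *Gusb*, a lysosomal enzyme, was at 48.8 RPKM against 0.220 to 5.41 RPKM, *Ppia*, cyclophilin A, at 2526 RPKM against 39.5 to 317 RPKM, and *Pgm1*, a sugar phosphate mutase, at 37.0 RPKM against 0.802 to 4.74 RPKM. The 2 below were *Tbp*, the TATA-binding protein (150 RPKM against 712 to 2344 RPKM), and *Polr2a*, the large subunit of RNA polymerase II (25.6 RPKM against 61.1 to 223 RPKM). Under median-ratio scaling 10 of the 18 stayed 2-fold above and 2 stayed 2-fold below, and under quantile normalization 11 and 2 did.

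Some genes differed in which transcript was used. Of 9793 genes with 2 or more compared transcripts, 34 (0.347%) had 1 transcript 2-fold or more above and another 2-fold or more below all 7 testes. *Hoxd3os1*, an antisense RNA in the *Hoxd* cluster, had a 796 nt transcript at 4.52 RPKM in the ovary (testes 0.027 to 0.354 RPKM) and a 1701 nt transcript at 0.278 RPKM (testes 38.5 to 67.4 RPKM). The transcripts do not overlap, and lie at chr2:74710043-74712526 and chr2:74713126-74716130 on the minus strand. *Ccdc136* had a 384 nt transcript that ends before the second one begins at 3.45 RPKM (testes 0 to 0.404 RPKM) and a 3356 nt coding transcript with 15 exons at 1.66 RPKM (testes 119 to 323 RPKM).

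The next genes by the smaller of their gaps were *Gm15441*, *Ankef1* and *Egflam*. *Gm15441*, an antisense RNA, had a 1653 nt transcript at 55.6 RPKM (testes 2.67 to 5.10 RPKM) and a 659 nt transcript at 0.259 RPKM (testes 2.23 to 8.13 RPKM). *Ankef1* and *Egflam* differed in noncoding transcripts, such as a 446 nt transcript of *Egflam* at 2.38 RPKM in the ovary against 13.7 to 65.8 RPKM. Without strand in the counts, reads of antisense genes and their partners cannot be told apart.

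The X chromosome lies outside the autosomal lists. Of its 777 genes with at least 1 RPKM in 1 library, 371 (47.7%) lay 2-fold or more above all 7 testes and 115 (14.8%) lay 2-fold or more below, beside 34.4% and 14.4% of the autosomal genes.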

How the data were processed

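RNA-seq of polyA RNA (2 × 101 bp, paired-end) was mapped by the authors to Ensembl release 72 with TopHat2, and the authors deposited RPKM values for 94480 transcripts. The PEER adjustment and quantile normalization named in the methods were not applied to these RPKM values, because value times length fell on whole reads (within 0.06) for 93.1 to 94.6% of short transcripts with few reads. That step gave the estimated depth of 31262114 to 53185831 reads. It limits values near 0 most.

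GENCODE M21 (GRCm38) matched 90339 transcripts. The 89571 matched transcripts with a value in all 8 libraries were summed per gene, as the unit of comparison. Genes on the 19 autosomes with at least 1 RPKM in 1 library were kept, and distances were taken on log2(RPKM + 0.1). Groups came from the labels. With 1 ovary there is no test, and the 7 testes, of 2 genotypes, give the range only. The distance step was checked on simulated data.

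Genes named are the markers, the 10 protein-coding genes with the largest distance in each direction, the 10 genes with the highest transcript in the ovary, the 3 farthest members of each of 16 lists in its main direction and up to 3 in the other, and 5 genes with opposite transcripts. Of these, 1 gene is not reported here. A few further list members are named after their values were seen. Members and lists were chosen with earlier results of these data known. Columns of 14 other libraries were not used. Promoters are from RefSeq. Python 3.11.15, pandas 2.3.3, numpy 2.4.6 and matplotlib 3.10.9 were used.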

Additional observations from a re-analysis of the deposited data

Results flagged for a closer look

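In 91 named genes the 5 knockout testes were searched for a library standing apart by Dixon's ratio at its 95% critical value. Of these, 9 genes were marked. The critical value assumes normally spread values, which RPKM near 0 are not, so no rate by chance is given. A gene with all but 1 library at 0 is always marked, as *Apoa4*, *Oosp1*, *Ptgfr* and *Krt7* were. In 5 of the 9 marked genes a high library was near 0 RPKM: *Apoa4* (0.038 RPKM in testis 214, the others at 0), *Oosp1* (0.024 RPKM in 214, the others at 0), *Ptgfr* (0.346 RPKM in 214, the others at 0), *Krt7* (0.088 RPKM in 214, the others at 0) and *Mmp2* (0.495 RPKM in 308, the others 0.074 to 0.146 RPKM). *Hsd3b6* was at 4.22 RPKM in testis 308 and 0.899 to 1.42 RPKM in the others. *Adam2* was at 166 RPKM in testis 273 and 66.8 to 81.7 RPKM in the others, and *Ppia* at 261 RPKM in 273 and 130.5 to 151 RPKM in the others. *Rplp1* was low in testis 214, at 158 RPKM against 232 to 266 RPKM.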

How the results depend on the processing

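No paired analysis was possible because the ovary and the testes come from different mice. Of the 18 alternatives, the counts of genes 2-fold outside the range moved by over 1.5 times under these: a pseudocount of 1 RPKM gave 1739 genes below all 7 testes, and quantile normalization gave 3669 above and 4454 below. The count of genes with opposite transcripts (34) became 14 with a pseudocount of 1 RPKM, 15 with a filter of 5 RPKM and 97 without the 4 testes with *Prm1* under 2 RPKM. Leaving out each testis in turn gave 6389 to 7059 genes above and 2653 to 2921 below. Leaving out a testis can only narrow the range, so genes leave these counts only through the filter on low values. The 91 named genes gave 1638 values under the alternatives, of which 1359 moved by less than the SD of the 7 testes, 279 by more, and none changed sign. Among these genes 4 (*Dppa5a*, *Gfra1*, *Rn7sk* and *Rps24*) came to lie inside the testis range under at least 1 alternative. One ovary sets the main limit, since its difference from other ovaries is unknown here.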

Other observations

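Gene families taken by symbol, chosen after earlier results were known, give a further view of the same values. All 6 IGF binding proteins lay 2-fold above the testes, and so did 25 of 39 collagen chains, 9 of 11 laminin chains, 16 of 22 serpins and 4 of 5 AKR1C reductases, beside 34.4% of all genes compared. The share was 9 of 34 for NADH dehydrogenase subunits, 11 of 37 for proteasome subunits and 121 of 325 for Zfp zinc finger genes. Of 19 Hox genes, which pattern the body axis, 15 lay 2-fold above and 2 lay 2-fold below. *Hoxc6* was at 11.7 RPKM in the ovary and 0 to 0.454 RPKM in the testes, whereas *Hoxa4* was at 0.119 RPKM against 9.03 to 31.9 RPKM and *Hoxa3* at 0.218 RPKM against 2.71 to 8.94 RPKM.

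All 7 CatSper channel genes, which carry calcium into sperm, lay 2-fold below, as did 17 of 24 SPATA genes, beside 14.4% of all genes compared. Axonemal dynein heavy chains divided: 9 of 15 lay 2-fold below and 3 lay 2-fold above. *Dnah5*, a dynein of motile cilia, was at 15.7 RPKM in the ovary and 0.034 to 0.297 RPKM in the testes, whereas *Dnah17* was at 0.533 RPKM against 116 to 265 RPKM. Of 78 cytoplasmic ribosomal protein genes 50 lay 2-fold above and 3 lay 2-fold below, and the 2 farthest below were the retrogenes *Rpl39l* (1.04 RPKM against 341 to 1012 RPKM) and *Rpl10l* (0.111 RPKM against 17.8 to 78.8 RPKM).

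By kind of gene, 200 of 575 lincRNA genes lay 2-fold below and 83 lay 2-fold above, whereas 1878 of 15133 protein-coding genes lay 2-fold below and 5683 lay 2-fold above. The immunoproteasome subunits *Psmb8* (22.9 RPKM against 0.050 to 1.13 RPKM) and *Psmb9* (12.7 RPKM against 0 to 1.22 RPKM) lay above every testis, and the germ cell subunit *Psma8* lay below (1.05 RPKM against 5.44 to 24.9 RPKM).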
